A study of Rattus norvegicus with 62 samples.

Results

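Hearts of male rats of the outbred Wistar strain were compared between rats given 80 mg/kg/day rosiglitazone and rats given vehicle, with cardiac muscle sampled 168 h after the last dose. All groups were dosed by mouth once a day over 14 days. The arrays were taken by their titles, 6 at 80 mg/kg and 5 with vehicle, which made 11 of the 62 arrays of the series. Also used were 5 arrays at 10 mg/kg/day from the same time, and arrays of the same strain and dosing at 6, 24 and 336 h, with 5 at 80 mg/kg at each of these times, against 4, 6 and 5 with vehicle. Expression was read on an Affymetrix rat array, 1 array per sample. The labels give neither the age of the rats nor the heart chamber, and they do not tie each array to an animal of its own, so a p-value covers only the variation among these arrays. Cardiac muscle holds many cell types, and each value is an average over them.

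Rosiglitazone is a thiazolidinedione, a glucose-lowering drug that activates PPAR gamma. PPAR gamma is a nuclear receptor that pairs with RXR on DNA and drives genes of fatty acid uptake and storage, best known from fat cells and also present in capillary endothelium. The heart lives mainly on fatty acids: lipoprotein lipase, made by cardiomyocytes, is carried to the capillary lumen by the endothelial protein GPIHBP1, frees fatty acids from lipoproteins there, and fatty acid binding proteins carry them inside endothelial and muscle cells. The series asks what the drug does to the heart, and the arrays at 168 h were taken a week after dosing had stopped.

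Signals below are on the log2 scale after quantile normalization, a difference is 80 mg/kg minus vehicle on that scale with its standard error (SE), and a probe set, a group of short probes for 1 transcript, was called at an adjusted p under 0.05 in limma. The markers of the labelled tissue were present: 13 tested cardiomyocyte markers had a summed signal from 17.23 to 17.27 at 80 mg/kg, against 17.24 to 17.27 with vehicle, and differences between −0.06 and 0.04. Quantile normalization gives the brightest probe sets nearly the same values on every array, so this match was partly fixed in advance. With arrays scaled by their medians, 13 of 13 differences were positive, with a median of 0.08, beside −0.004 over all genes. The atrial myosin light chain gene Myl7 ran from 6.20 to 7.96 at 80 mg/kg, against 6.10 to 8.02 with vehicle, and the ratio of 3′ to 5′ signal of actin, a measure of RNA integrity, from 0.57 to 1.10 (log2) at 80 mg/kg, against 0.71 to 1.09 with vehicle. The arrays differed in overall brightness within both groups, with trimmed mean signals from 85.1 to 198.2 over these 11 arrays. Over the whole series the arrays fell into 3 clusters by their main components, which held 3, 2 and 1 arrays at 80 mg/kg, against 3, 1 and 1 with vehicle. The third cluster also held all arrays at 336 h, 5 at 80 mg/kg, 6 at 10 mg/kg and 5 with vehicle. Without the 2 arrays at 168 h that fell in the third cluster, 7 probe sets were called.

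A week after the last dose the hearts differed in a small set of genes. Aqp1, a water channel, had the smallest p, and Rbp7 and Gpihbp1, a retinol-binding protein and the capillary anchor of lipoprotein lipase, had the largest rises. Of 18625 probe sets tested, 10 were called (0.0537%), 7 of them higher at 80 mg/kg (0.0376%) and 3 lower (0.0161%). An unadjusted p below 0.05 was found for 1014. Of the 10, 8 carry 1 gene name: Rbp7, Gpihbp1, Fabp4, Fabp5, Hrct1 and Ggta1 rose, and Aqp1 and Cytl1 fell. In all 10 the 6 arrays at 80 mg/kg did not overlap the 5 vehicle arrays, which held for 114 of all tested probe sets (0.612%), 56 of them higher at 80 mg/kg (0.301%) and 58 lower (0.311%). Leaving out 1 array at a time gave between 5 and 12 calls, with 5 without vehicle replicate 5.

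**Figure D1:**
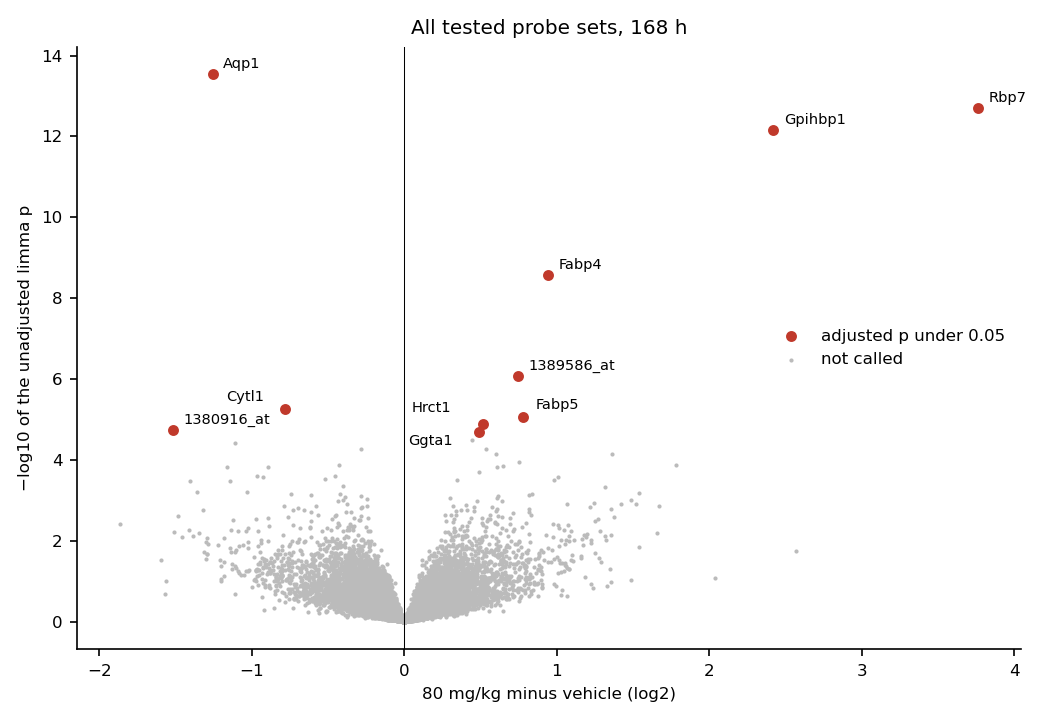
Each point is 1 of 18625 tested probe sets at 168 h, with its difference (80 mg/kg minus vehicle, log2) on the horizontal axis and −log10 of its unadjusted limma p on the vertical axis. The 10 called probe sets are red and named, and Rbp7, Gpihbp1 and Aqp1 stand far above the rest at differences of 3.76, 2.42 and −1.25.

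Rbp7 encodes a cytosolic retinol-binding protein of the fatty acid binding protein family, found in mice in fat and in capillary endothelium. Its signal was 11.84, 11.27, 11.32, 11.24, 11.88 and 11.71 on the 6 arrays at 80 mg/kg, against 7.93, 7.79, 7.56, 7.78 and 7.86 on the 5 vehicle arrays. The lowest treated array lay far above the highest vehicle array. The groups averaged 11.54 ± 0.30 at 80 mg/kg (SD, n = 6) and 7.78 ± 0.14 with vehicle (SD, n = 5). They were 3.76 apart (SE 0.38, adjusted p 1.90e-09, limma), a 13.6-fold rise with a 95% interval from 7.94 to 23.1. This was the largest rise among the called probe sets.

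Gpihbp1 encodes the capillary anchor of lipoprotein lipase. It read 10.53, 9.75, 10.13, 10.02, 10.66 and 10.19 at 80 mg/kg, against 7.33, 7.91, 7.97, 8.01 and 7.75 with vehicle, so that the groups lay well apart. The difference was 2.42 (SE 0.26, adjusted p 4.26e-09, limma), or 5.35-fold with an interval from 3.75 to 7.65. The lipase itself, Lpl, was among the brightest signals in both groups, at 13.17 ± 0.08 at 80 mg/kg and 13.25 ± 0.14 with vehicle, and its difference of −0.08 did not pass (SE 0.06, 95% interval from −0.21 to 0.04).

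Fabp4 and Fabp5 encode fatty acid binding proteins shared by fat cells, macrophages and capillary endothelium. Fabp4 read 12.89, 12.54, 12.64, 12.57, 13.04 and 12.84 at 80 mg/kg, against 11.84, 11.96, 11.70, 11.84 and 11.72 with vehicle, a difference of 0.94 (SE 0.13, adjusted p 1.24e-05, limma). That was a 1.92-fold rise of a transcript that was already bright without the drug. Fabp5 read 10.76, 10.48, 10.69, 10.32, 10.77 and 10.62 at 80 mg/kg, against 9.99, 9.71, 10.08, 9.75 and 9.60 with vehicle, a difference of 0.78 (SE 0.16, adjusted p 0.0234). Both genes were higher on 6 of 6 treated arrays, but the gap for Fabp5 was narrow and its call was lost on leaving out any of 6 of the 11 arrays (vehicle replicates 2, 4 and 5, and replicates 1, 5 and 6 at 80 mg/kg), with adjusted p up to 0.137. The cardiomyocyte form Fabp3 had a difference of −0.06 (SE 0.04) and did not pass.

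Aqp1 encodes a water channel found in capillary endothelium and in red blood cells. It was the clearest fall and had the smallest p of all probe sets. Its signal was 9.67, 9.68, 9.63, 9.77, 9.63 and 9.78 at 80 mg/kg, against 10.92, 10.90, 10.88, 11.05 and 10.99 with vehicle. Both groups were tight, with SDs of 0.07, and they did not overlap. The difference was −1.25 (SE 0.12, adjusted p 5.45e-10, limma), or 2.39-fold lower at 80 mg/kg. A dimmer probe set of Aqp1 averaged 8.88 at 80 mg/kg and 10.03 with vehicle, a difference of −1.14 in the same direction that was not called (adjusted p 0.189). Markers of red blood cells, which also carry Aqp1, had a summed signal from 13.27 to 13.84 at 80 mg/kg, against 13.29 to 13.53 with vehicle, and 4 of 4 tested had positive differences, from 0.09 to 0.33; their part in the fall of Aqp1 was not tested.

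The region just upstream of a gene's start is where a nuclear receptor may bind, and promoters are shown for Rbp7 and Aqp1, the called genes that moved most in each direction among those with a RefSeq entry. Both come from GRCr8 and run from 250 bases before to 50 bases after the start, 5′ to 3′ on the strand of the gene. Rbp7 lies at chr5:165177350-165177649 on the minus strand and Aqp1 at chr4:85812534-85812833 on the plus strand. Capitals mark TATAA, the core of a TATA box, searched on both strands.
Rbp7: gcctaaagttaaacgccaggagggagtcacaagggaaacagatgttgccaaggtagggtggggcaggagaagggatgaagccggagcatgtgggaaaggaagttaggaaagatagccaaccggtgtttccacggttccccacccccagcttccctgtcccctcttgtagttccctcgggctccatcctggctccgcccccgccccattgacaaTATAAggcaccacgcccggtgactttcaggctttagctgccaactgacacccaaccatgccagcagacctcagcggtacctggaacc
Aqp1: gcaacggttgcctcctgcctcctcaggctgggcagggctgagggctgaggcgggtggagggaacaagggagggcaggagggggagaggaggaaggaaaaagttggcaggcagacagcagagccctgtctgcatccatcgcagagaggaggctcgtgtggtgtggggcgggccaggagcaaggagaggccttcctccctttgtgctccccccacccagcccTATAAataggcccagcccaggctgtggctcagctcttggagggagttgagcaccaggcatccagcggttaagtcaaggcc
The match begins 37 bases before the start of Rbp7 and 30 bases before that of Aqp1, and 26.2% of 33469 rat promoters of the same length hold one. The PPAR element was searched on both strands as AGGTCA, 1 base of any kind, AGGTCA, with at most 2 mismatches among its 12 letters, and the half-site AGGTCA alone was searched as well, which overlaps it. Neither occurs in the windows of Rbp7, Aqp1, Ggta1 or Cytl1, the 4 of 8 called genes in the table, while 3.77% of all promoters hold the element and 16.2% the half-site. These letters are missing from these windows only, and other regions were not searched.

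Cytl1, which encodes a small secreted cytokine-like protein, was the other named gene that fell. It read 7.09, 7.12, 7.32, 7.16, 7.11 and 6.84 at 80 mg/kg, against 8.26, 7.78, 7.80, 7.63 and 7.96 with vehicle, a difference of −0.78 (SE 0.15, adjusted p 0.0174, limma). Its groups did not overlap. Its call was lost without vehicle replicates 1 or 5 or replicate 6 at 80 mg/kg, with adjusted p up to 0.108.

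Hrct1 and Ggta1 were smaller rises. Hrct1 ran from 9.26 through a median of 9.35 to 9.56 at 80 mg/kg, against 8.75, 8.94, 9.13, 8.83 and 8.68 with vehicle, a difference of 0.51 (SE 0.11, adjusted p 0.0306). Ggta1, which encodes the enzyme that puts the alpha-gal sugar on cell surfaces, ran from 8.39 through 8.72 to 8.89 at 80 mg/kg, against 8.23, 8.05, 8.05, 8.32 and 8.33 with vehicle, a difference of 0.49 (SE 0.11, adjusted p 0.039). For both genes the lowest treated array lay only just above the highest vehicle array. On leaving out 1 array, the call was kept for Hrct1 in 5 and for Ggta1 in 2 of 11 fits, with adjusted p up to 0.183 and 0.165: Hrct1 lost it without vehicle replicates 1, 2, 4 or 5 or replicates 3 or 5 at 80 mg/kg, and Ggta1 kept it only without replicate 1 or 3 at 80 mg/kg. A second Ggta1 probe set, at 4.17 at 80 mg/kg and 4.09 with vehicle, was too dim to be tested.

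The last 2 calls have no gene name here. Probe set 1389586_at ran from 9.53 to 9.70 at 80 mg/kg, against 8.71 to 8.99 with vehicle, a difference of 0.75 (SE 0.13, adjusted p 0.00318), and kept its call in 11 of 11 fits that left out 1 array. Probe set 1380916_at ran from 3.46 to 4.78 at 80 mg/kg, against 5.21 to 5.96 with vehicle, a difference of −1.51 (SE 0.32, adjusted p 0.0378). Its treated signals were all below 5.03, the mean signal required for testing, and it kept its call in 4 of 11 such fits: without vehicle replicate 2 or replicates 1, 3 or 6 at 80 mg/kg.

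**Figure D2:**
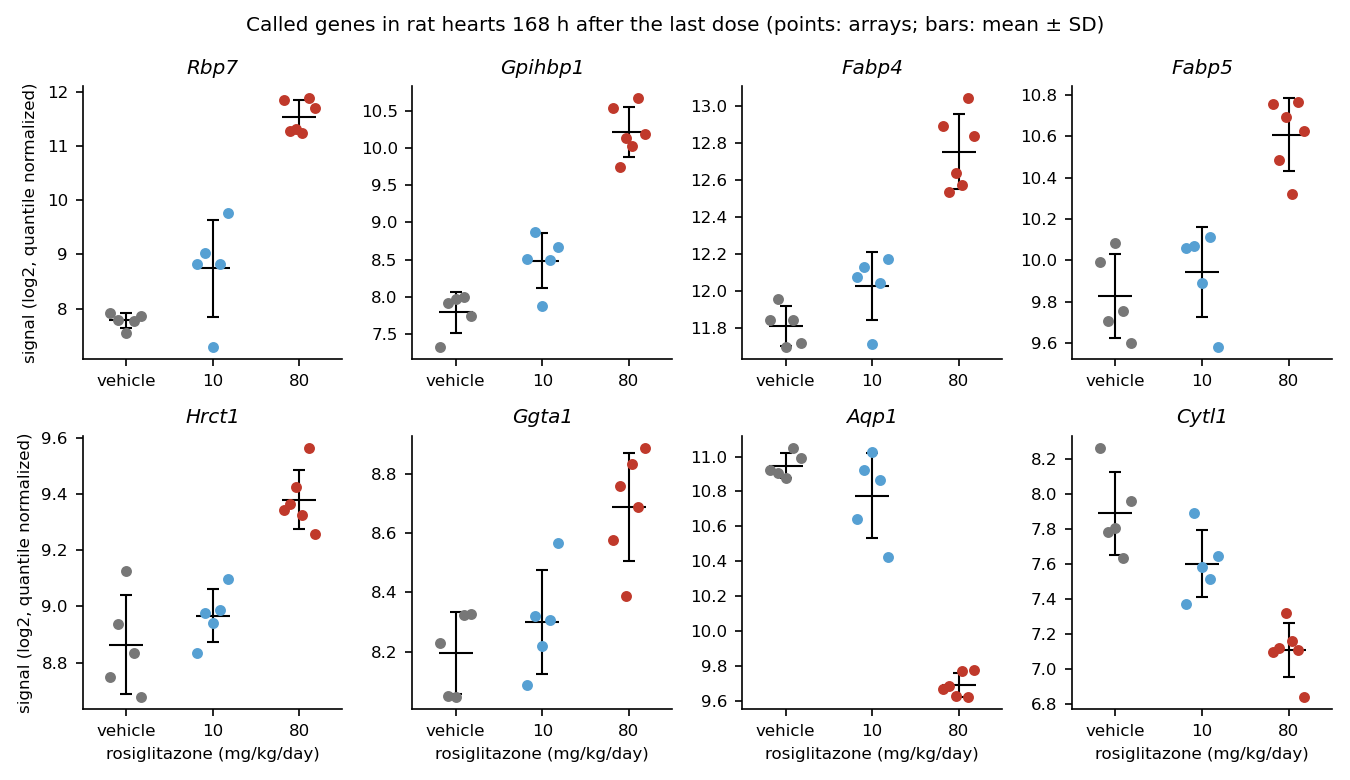
Signals (log2, quantile normalized) of the 8 called genes at 168 h by dose in mg/kg/day, with 1 point per array and bars at the mean ± SD (n = 5 vehicle, 5 at 10 mg/kg, 6 at 80 mg/kg). The arrays at 80 mg/kg lie apart from vehicle in each panel, and those at 10 mg/kg lie between or close to vehicle, as for Rbp7 at 8.74 ± 0.90.

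Beyond these, no probe set passed, and the values that follow are of the named genes next in order of p. On the higher side were Ptprr, a tyrosine phosphatase that acts on MAP kinases, at 0.45 (SE 0.10, adjusted p 0.0539), Plpp1, a phosphatase of lysophosphatidic acid and other lipid phosphates, at 0.53 (SE 0.12, adjusted p 0.0724), and Akap12, a scaffold of protein kinase A, at 0.60 (SE 0.14, adjusted p 0.0815). Mgll, the lipase that splits monoacylglycerol, ran from 8.67 through 8.93 to 9.75 at 80 mg/kg, against 8.44, 8.40, 8.41, 8.10 and 7.86 with vehicle, a difference of 0.75 (adjusted p 0.123). Tnfsf10, the death ligand TRAIL, ran from 7.95 to 8.10 at 80 mg/kg, against 7.14 to 7.52 with vehicle, and Tril, an accessory protein of Toll-like receptors, from 8.03 to 8.42 at 80 mg/kg, against 7.13 to 7.97 with vehicle, with differences of 0.65 and 0.61 (adjusted p 0.123 for both). All 6 were higher on every treated array than on any vehicle array, beside 0.301% of all probe sets, yet missed the threshold. They were picked by small p, which favours groups that do not overlap. Sarm1 and Zbtb48, at differences of 1.37 and 1.78, are dim, with vehicle means of 4.55 and 3.73.

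On the lower side the next was Cyp26b1, an enzyme that breaks down retinoic acid. It ran from 6.00 through 6.13 to 6.64 at 80 mg/kg, against 7.62, 7.50, 7.23, 6.76 and 7.45 with vehicle, a difference of −1.11 (SE 0.25, adjusted p 0.0608, limma). The 6 treated arrays lay below all vehicle arrays. Btbd10 followed at −0.28 (adjusted p 0.0724), and Slc23a2, a vitamin C transporter, at −0.90 (adjusted p 0.123). Lpar1, a receptor of lysophosphatidic acid, had −0.45 (adjusted p 0.175) on a probe set that was not its brightest. Car4, the carbonic anhydrase of the capillary wall, read 7.07, 6.50, 7.04, 6.53, 7.27 and 4.81 at 80 mg/kg, against 7.42, 7.61, 7.57, 7.27 and 7.64 with vehicle, a difference of −0.97 (adjusted p 0.175). Its size rests in part on replicate 6 at 80 mg/kg, without which it was −0.62 (adjusted p 0.538). Of these genes Btbd10, Cyp26b1, Ptprr, Plpp1, Akap12, Tnfsf10, Slc23a2, Car4, Sarm1 and Zbtb48 were called under at least 1 other setting.

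Capillary endothelial markers held 5 of the 8 called genes but did not move together. The list was chosen with earlier results of these data known, so its counts are a description and not a test. Of 26 tested, 4 were called higher (Rbp7, Gpihbp1, Fabp4 and Fabp5) and 1 lower (Aqp1), beside 8 of 10557 genes called in all (0.0758%, counting the brightest probe set of each gene). The other 21 markers split into 11 positive and 10 negative differences with a median of 0.00. Pecam1, an adhesion protein of all endothelium, read 8.91 ± 0.16 at 80 mg/kg and 8.92 ± 0.15 with vehicle, and the markers Emcn, Tek, Egfl7 and Icam2, named after their values were seen, lay as near 0, all 5 with 95% intervals within −0.25 and 0.26. Kdr, the main receptor for VEGF, ran from 10.23 to 10.56 at 80 mg/kg, against 9.87 to 10.22 with vehicle, a difference of 0.35 (SE 0.09, adjusted p 0.189). With Kdr higher and Car4 lower, 7 of the 26 markers had groups that did not overlap, 5 higher and 2 lower, beside 0.35% and 0.369% of all genes. The summed signal of the list ran from 14.83 to 15.12 at 80 mg/kg, against 14.47 to 14.65 with vehicle, and without the called genes from 14.02 to 14.23 at 80 mg/kg, against 13.98 to 14.19 with vehicle. In tissue like this, fewer or more cells of a type cannot be told apart from less or more RNA per cell.

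**Figure D3:**
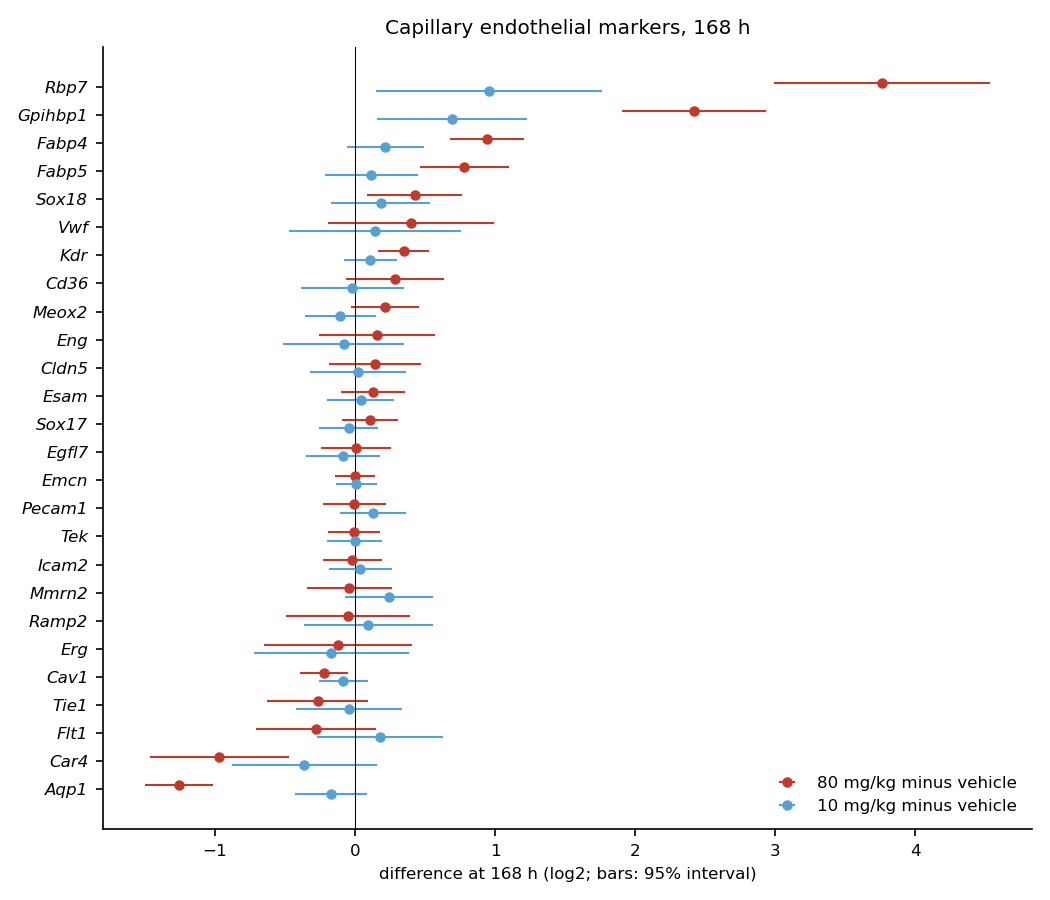
Differences at 168 h (log2, horizontal axis) with 95% intervals for the 26 tested capillary endothelial markers, for 80 mg/kg minus vehicle (red) and 10 mg/kg minus vehicle (blue), which share the vehicle arrays. At 80 mg/kg, Rbp7, Gpihbp1, Fabp4 and Fabp5 lie right of 0, as does Kdr at 0.35, which was not called, and Aqp1 and Car4 lie left, Car4 without a call, while Pecam1, Emcn, Tek and others sit at 0.

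Called genes also sat in the lists of retinoid, capillary lipolysis and aquaporin genes, beside 0.0758% of all genes called. Of 2 tested aquaporins, 1 was called lower, Aqp1, and Aqp7 had a difference of −0.26 (SE 0.18) that did not pass. Of 15 tested genes of retinoid binding and metabolism, 1 was called, Rbp7, and 9 differences were positive and 6 negative, with a median of 0.02, beside −0.003 over all genes. The vitamin A carrier receptor Stra6 had a difference of 0.69 (adjusted p 0.88) with vehicle arrays spread from 3.37 to 5.95. Of 17 genes of capillary lipolysis and fatty acid entry, 3 were called, Gpihbp1, Fabp4 and Fabp5, and the list had 8 positive and 9 negative differences. The fatty acid translocase Cd36 averaged 12.64 ± 0.20 at 80 mg/kg and 12.35 ± 0.23 with vehicle, a difference of 0.29 (SE 0.17, adjusted p 0.976).

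Angptl4, a secreted inhibitor of lipoprotein lipase and a PPAR target, was too dim to be tested with the others and is named after its values were seen. It read 6.26, 4.48, 6.05, 3.20, 6.99 and 5.32 at 80 mg/kg, against 1.80, 1.78, 3.18, 2.79 and 3.82 with vehicle. The groups overlapped through 1 treated array, replicate 4. In a fit on all probe sets without the filter on signal, its difference was 2.71 (SE 0.65, adjusted p 0.174). None of the 80 list members below the filter had groups that did not overlap.

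None of the receptors was called. Pparg itself ran from 6.51 through 6.78 to 7.04 at 80 mg/kg, against 6.58, 6.63, 6.36, 5.98 and 6.41 with vehicle, a difference of 0.38 (SE 0.21, adjusted p 0.948), and Ppara had a difference of 0.26 (SE 0.43). Of 13 tested PPAR receptors and cofactors, 0 were called, 8 differences were positive and 5 negative, and the largest fall was Prdm16 at −0.46.

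Genes of fatty acid oxidation had lower values on the whole, with no single gene past the test. Of 25 tested, 0 were called, 23 had negative differences and 2 positive, with a median of −0.13, beside a median of −0.003 and 49.1% positive over all genes. The lean was not particular to 80 mg/kg: for 10 mg/kg minus the same vehicle arrays the median was −0.10, beside 0.002 over all genes. Decr1, the reductase needed for unsaturated fatty acids, ran from 11.25 through 11.62 to 11.88 at 80 mg/kg, against 12.09, 12.20, 12.06, 12.05 and 12.18 with vehicle, a difference of −0.52 (SE 0.13, adjusted p 0.188). Acadm, the dehydrogenase of medium-chain fatty acids, ran from 12.64 to 12.80 at 80 mg/kg, against 12.89 to 13.03 with vehicle, a difference of −0.24 (SE 0.07, adjusted p 0.354), and Slc25a20, the carnitine carrier of the mitochondrial membrane, from 10.34 to 10.64 at 80 mg/kg, against 10.68 to 10.93 with vehicle, a difference of −0.29 (adjusted p 0.782). These 3 of the 25 genes had groups that did not overlap, beside 0.369% of all genes with lower values, and Eci1 and Hadh, at −0.28 and −0.25, overlapped. Cpt1b, the muscle form of the enzyme that admits fatty acids to mitochondria, had a difference of −0.01 (SE 0.07). The list's median was −0.09 with arrays scaled by their medians and −0.30 on the deposited scale, where all genes had a median of −0.21.

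PPAR alpha targets of the fasting heart, a list that shares genes with the oxidation list, ran the same way without a call: 12 of 16 differences were negative and the median was −0.19. For 10 mg/kg minus vehicle the median was −0.13. Pdk4, the kinase that shuts pyruvate out of the citric acid cycle, ran from 9.92 through 10.24 to 10.67 at 80 mg/kg, against 10.43, 10.74, 10.84, 10.44 and 11.28 with vehicle, a difference of −0.49 (adjusted p 0.905). It averaged 10.28 at 10 mg/kg and 10.25 at 80 mg/kg. Plin5, a lipid droplet coat of muscle, had −0.48 (adjusted p 0.854), and Txnip, an inhibitor of thioredoxin, 0.54 in the other direction (adjusted p 0.883). Differences were smaller in the mitochondrial chain, where 33 genes of oxidative phosphorylation had a median of −0.02, between −0.08 and 0.22, with 13 positive and 20 negative, and median scaling turned this to a median of 0.05 with 31 positive and 2 negative. The glucose transporter genes Slc2a1 and Slc2a4 had differences of −0.10 and 0.15, and Slc2a3 of 0.55 (SE 0.18, adjusted p 0.486).

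**Figure D4:**
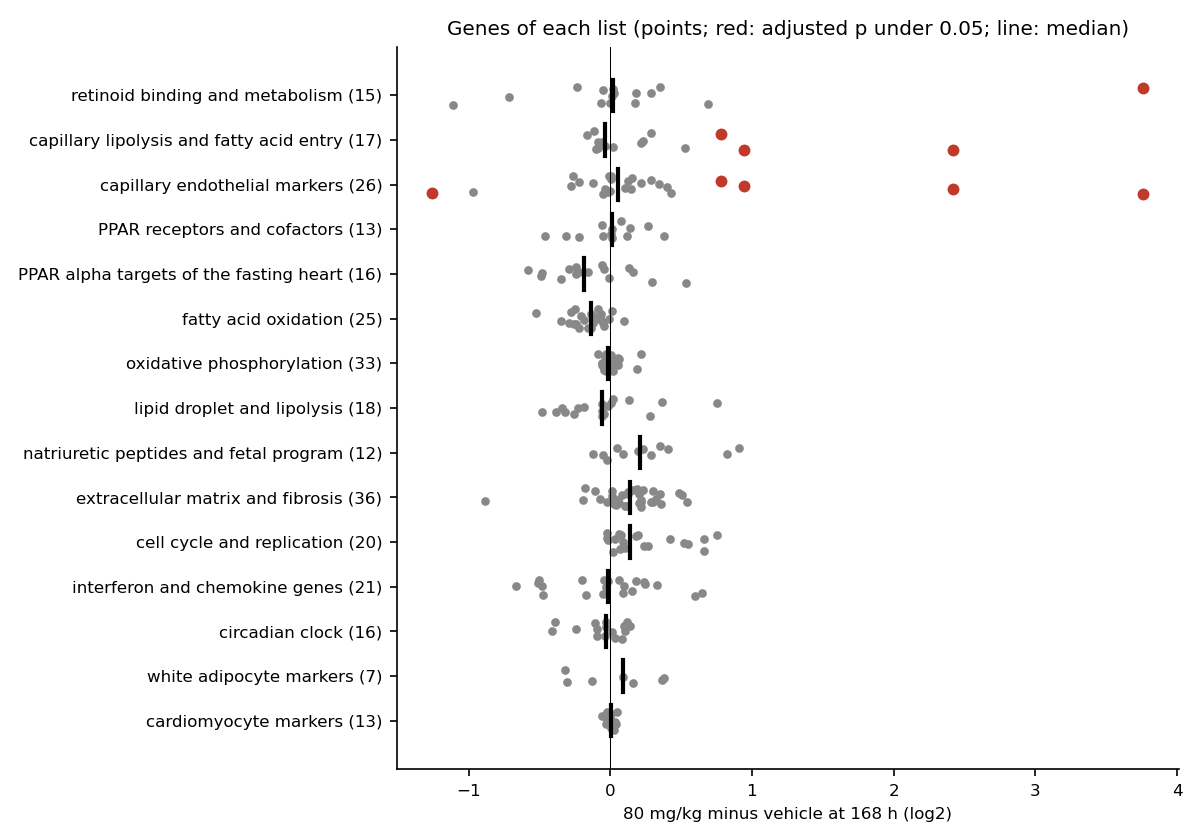
Difference at 168 h (80 mg/kg minus vehicle, log2) of each tested gene in 15 lists, with 1 point per gene, called genes in red, list medians as black lines and the number of tested genes in brackets. Called genes sit in the retinoid, capillary lipolysis and endothelial lists, while the medians of all lists shown lie between −0.19 and 0.21.

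Genes of cardiac load and of extracellular matrix leaned higher, again with 0 calls. In the list of natriuretic peptides and fetal genes, 9 of 12 differences were positive, with a median of 0.21, beside −0.003 over all genes. On the deposited scale 6 of 12 were positive with a median of 0.03, beside −0.21 over all genes, so that the list stood above all genes by 0.22 after quantile normalization and by 0.24 there. Myh7, the slow myosin heavy chain re-expressed in strained rat hearts, ran from 12.18 through 12.93 to 13.11 at 80 mg/kg, against 12.22, 11.40, 12.39, 11.43 and 12.63 with vehicle, a difference of 0.83 (SE 0.37, adjusted p 0.883). Nppa, the atrial natriuretic peptide, ran from 10.46 through a median of 10.998 to 12.004 at 80 mg/kg, against 11.08, 9.34, 9.69, 10.31 and 10.52 with vehicle, a difference of 0.91 (SE 0.60, adjusted p 0.996), and Nppb, its ventricular relative, had 0.41 (SE 0.22). The vehicle arrays differed among themselves by more than these differences for Nppa and Myh7. The main myosin Myh6 and the calcium pump Atp2a2 had differences of −0.001 and −0.03 after quantile normalization, which holds the brightest signals nearly alike.

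In the list of extracellular matrix and fibrosis, 30 of 36 differences were positive, with a median of 0.14. The growth factor Ccn2 had 0.35 (SE 0.18, adjusted p 0.915), the collagen Col1a1 0.19 (SE 0.22) and fibronectin, Fn1, 0.12 (SE 0.20). On the deposited scale the median was −0.05, with 16 positive and 20 negative, beside the −0.21 over all genes, so that the list stood above all genes by 0.15 after quantile normalization and by 0.16 there. Fibroblast markers did not lean higher after quantile normalization, with 4 positive and 8 negative differences of 12 tested and a median of −0.03. Of the cell cycle genes 17 of 20 were positive, with a median of 0.14, which was 0.14 above all genes, and of −0.07 on the deposited scale, also 0.14 above. Among interferon and chemokine genes 10 differences were positive and 11 negative, with Cxcl9, a chemokine for T cells, at 0.60 (adjusted p 0.71) and Stat2, a factor of interferon signalling, at −0.51 (adjusted p 0.59).

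Other cell types gave no call. Fat cells express Rbp7, Fabp4 and Fabp5 too, so their markers were read in full: 7 of 14 were tested, 0 were called, 4 had positive and 3 negative differences, and the summed signal ran from 10.18 to 10.69 at 80 mg/kg, against 10.38 to 10.62 with vehicle. The defining fat cell genes Adipoq, Plin1, Cidec and Lep were below the filter, with means of 3.38, 4.63, 2.09 and 3.15 at 80 mg/kg, against 4.30, 4.33, 2.09 and 3.67 with vehicle. Macrophage markers, which also share Fabp4 and Fabp5, had 11 of 15 negative differences and a summed signal from 11.04 to 11.53 at 80 mg/kg, against 11.21 to 11.54 with vehicle. The part of fat cells and macrophages in the called genes was not tested.

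Rbp7, Gpihbp1, Fabp4 and Aqp1 also differed between the doses. For 80 against 10 mg/kg at 168 h, 7 probe sets were called (0.0376%), 6 higher at 80 mg/kg (0.0322%) and 1 lower (0.00537%), and 881 had an unadjusted p below 0.05. This comparison and that against vehicle share the arrays at 80 mg/kg. At 80 minus 10 mg/kg, Aqp1 had −1.08 (SE 0.12, adjusted p 7.73e-08), Rbp7 2.80 (SE 0.38, adjusted p 1.53e-05), Gpihbp1 1.73 (SE 0.26, adjusted p 7.96e-05), Fabp4 0.73 (SE 0.13, adjusted p 0.00404) and Plpp1 0.63 (SE 0.12, adjusted p 0.00905). The other 2 calls have no gene name: 1388319_at averaged 5.62 at 80 mg/kg and 4.04 at 10 mg/kg, with 5.59 in vehicle, and 1391500_at 9.01 and 7.78, with 8.50 in vehicle, so that for the first the arrays at 10 mg/kg averaged below both other groups, and for the second vehicle lay between the doses, with arrays that overlapped those of both.

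Between 10 mg/kg and vehicle 0 probe sets were called by limma, with 718 at an unadjusted p under 0.05, in a comparison that shares its vehicle arrays with the one above. Rbp7 read 8.82, 9.02, 7.29, 8.81 and 9.76 at 10 mg/kg, with 4 of these 5 above the highest vehicle array at 7.93, a difference of 0.96 (SE 0.40). Gpihbp1 had 0.69 (SE 0.27), Fabp4 0.22 (SE 0.14), Fabp5 0.12 (SE 0.17), Aqp1 −0.17 (SE 0.13) and Cytl1 −0.29 (SE 0.16), each in the direction of the higher dose. Replicate 4 at 10 mg/kg was the lowest of its group for Rbp7, Gpihbp1 and Fabp4. In order of level, Rbp7 and Gpihbp1 stood lowest in vehicle, next at 10 mg/kg and highest at 80 mg/kg, and only the step to 80 mg/kg passed the test.

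The same contrast was available on other arrays at 6, 24 and 336 h. Some of these were high in the atrial gene Myl7, in both groups at 6 h and only at 80 mg/kg at 24 h. At 24 h it read 12.86, 7.56, 12.94, 11.997 and 7.59 at 80 mg/kg, against 6.67 to 7.97 in the 6 vehicle arrays, so that 3 of 5 treated arrays were high and no vehicle array was. At 6 h 2 of 5 arrays at 80 mg/kg and 1 of 4 with vehicle lay near 12, and at 168 and 336 h none did. Over the 10 tested atrial markers the summed signal at 24 h ran from 13.06 to 15.04 at 80 mg/kg, against 13.09 to 13.32 with vehicle, and 9 differences were positive with 0 calls. Comparisons with 6 and 24 h were therefore also made without the arrays above 9 for Myl7, which left 2 arrays at 80 mg/kg at 24 h, assumed to vary like the other groups. The groups at 24 h also differed in RNA integrity. The 3′ to 5′ ratio of actin ran from 0.62 to 0.92 (log2) at 80 mg/kg, against 0.77 to 2.12 with vehicle. That of hexokinase ran from 1.49 to 2.59, against 1.87 to 6.08. The 3 clusters held 2, 1 and 2 arrays at 80 mg/kg, against 1, 5 and 0 with vehicle. Leaving out the arrays high in Myl7 does not remove these differences. Of the 10 probe sets called at 168 h, 4 were also called at 6 h, 4 at 24 h and 8 at 336 h, where 10 (0.0537%), 26 (0.14%) and 54 (0.29%) of all probe sets were called, and all shared calls had the same direction. Without the arrays high in Myl7, 5 probe sets were called at 6 h (0.0268%) and 24 at 24 h (0.129%), of which 4 and 2 were among the 10, while all 10 calls at 168 h were kept. Of the 24 calls at 24 h, only 7 were among the 26 made with all arrays. With all arrays, Rbp7 had differences of 2.93, 2.95, 3.76 and 4.10 at 6, 24, 168 and 336 h, Gpihbp1 of 1.48, 1.70, 2.42 and 2.62, and Fabp4 of 1.004, 0.73, 0.94 and 1.04, called at each time. Aqp1 had −0.15, −0.81, −1.25 and −1.70, with no call at 6 h only. Without the high arrays the differences at 24 h were 2.24 for Rbp7 and 1.36 for Gpihbp1, both called, and 0.47 for Fabp4 and −0.49 for Aqp1, both without a call (adjusted p 0.116 and 0.155). Fabp5 had 0.60, 0.21, 0.78 and 0.82, and Hrct1 0.61, 0.12, 0.51 and 0.56. Cytl1 went against this course, with −0.11, 0.16, −0.78 and −0.28 and a call at 168 h alone, and so did 1380916_at, with 0.09, −0.69, −1.51 and 0.17.

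**Figure D5:**
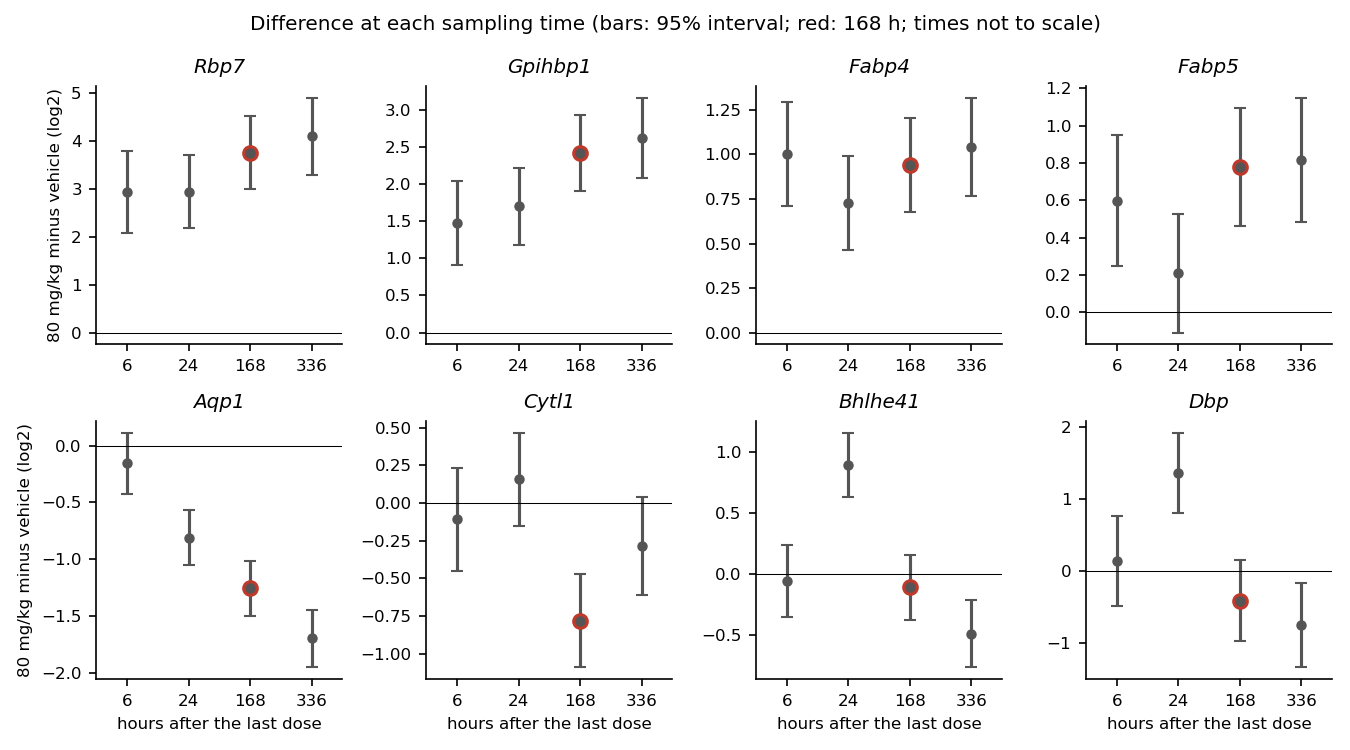
Difference between 80 mg/kg and vehicle (log2) with its 95% interval at 6, 24, 168 and 336 h after the last dose (horizontal axis, not to scale), with 168 h ringed in red. Rbp7 and Gpihbp1 stay above 0 and Aqp1 runs from −0.15 at 6 h to −1.70 at 336 h, while Bhlhe41 and Dbp are high at 24 h only. All arrays are used, with 3 of 5 at 80 mg/kg and 24 h high in Myl7, and RNA integrity also differed between the groups at 24 h.

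Tested against each other over all arrays, the effects at 168 h and 24 h differed in 1 probe set, Bhlhe41, a repressor of the circadian clock (0.00537%, with 1318 at an unadjusted p under 0.05). Bhlhe41 averaged 7.64 ± 0.28 at 80 mg/kg and 7.75 ± 0.25 with vehicle at 168 h, against 8.78 ± 0.14 at 80 mg/kg and 7.89 ± 0.30 with vehicle at 24 h. The effect at 168 h was thus −0.11, against 0.90 at 24 h, a difference of −1.004 (SE 0.19, adjusted p 0.0314, limma). Without the arrays high in Myl7 the difference was −0.99 (SE 0.23) and the call was lost (adjusted p 0.144), while 1 other probe set was called, 1396805_at, which has no gene name here, at 2.32 (SE 0.43, adjusted p 0.0476), against 1.03 with all arrays. The call of Bhlhe41 was absent under 7 of 11 further settings, among them array cluster as a block and RNA integrity as covariates. It was also absent without vehicle replicates 3, 4 or 5 or replicates 1, 2 or 4 at 80 mg/kg of 168 h, and without vehicle replicates 2, 3 or 4 or replicates 2, 3 or 5 at 80 mg/kg of 24 h. The clock output factor Dbp followed the same pattern, with an effect of −0.41 at 168 h against 1.36 at 24 h, but the difference of −1.77 did not pass (SE 0.40, adjusted p 0.389), nor without those arrays (adjusted p 0.288). For Rbp7, Gpihbp1 and Aqp1 the effect at 168 h differed from that at 24 h by 0.81 (SE 0.54), 0.72 (SE 0.36) and −0.45 (SE 0.17), and without those arrays by 1.53 (SE 0.46), 1.06 (SE 0.36) and −0.77 (SE 0.17), none past the threshold (adjusted p from 0.122).

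Against 336 h, limma called 0 probe sets, with 639 at an unadjusted p under 0.05. The effects of Rbp7, Gpihbp1, Fabp4 and Fabp5 at 168 h differed from those at 336 h by −0.34 (SE 0.56), −0.20 (SE 0.37), −0.10 (SE 0.19) and −0.04 (SE 0.23), and that of Aqp1 by 0.44 (SE 0.18). Akap12 and Plpp1, not called at 168 h, had effects of 1.12 and 0.95 at 336 h, both called there (adjusted p 1.73e-06 and 2.29e-06), against 0.60 and 0.53 at 168 h. Those differences between times, −0.52 (SE 0.20) and −0.42 (SE 0.18), did not pass.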

How the data were processed

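The authors deposited 1 linear intensity for each probe set of each array. GCOS and MAS5, which summarise each array on its own, are named per the submitters' processing notes; their versions are not given in the sources used here. Per the labels, tissue was kept in RNAlater, total RNA came from a column kit with DNase, and biotin labelling took 1 cycle. The table held 31099 probe sets, of which 57 controls were left out. Because arrays differed in overall brightness, log2 signals were quantile normalized, so a difference is relative to the rest of the array. Without this step, the tested probe sets had a median difference of −0.21 (log2) for 80 mg/kg minus vehicle at 168 h. Probe sets with a mean at or above the 40th percentile (5.03) were kept. Their genes came from the platform's annotation: of 31042, 20832 had 1 gene and 436 several, and 20764 identifiers matched RefSeq, with 0 symbols changed.

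Means of 12 groups were fitted to 62 arrays with limma 3.58.1 in R 4.3.3 (50 residual and 2.36 prior degrees of freedom), two-sided, with Benjamini-Hochberg adjustment over all 18625 probe sets. The contrasts were 80 mg/kg against vehicle, against 10 mg/kg, and the difference of its effect from those at 24 and 336 h. The fit was run on simulated data with independent noise, without the array clusters seen here, which checks the code only. A signal intensity has no read depth, and the number of arrays limits the precision. No 2 arrays were identical, and rank correlations within each group at 168 h were at least 0.91.

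Members and the 37 gene lists were chosen with earlier results of these data known. Genes for naming were picked by rule: all called ones, the next 8 in each direction, and up to 4 per list with the smallest p. Added were a fixed metabolic and cardiac set (in which Cdh5 had no probe set), and the 4 smallest p of each other contrast. Some of these are left out of the text, such as Qsox2, LOC102554253, Ucp3, Plin2 and Bmal1. Other genes named, the search for TATAA and the fits without the third array cluster or without arrays high in Myl7 were chosen after seeing the data. Alternatives were other scalings, filters, a floor, array weights, an intensity trend, other arrays, and blocks or covariates. Promoters are RefSeq's, GRCr8.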

Additional observations from a re-analysis of the deposited data

Results flagged for a closer look

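Of 128 groups of named probe sets at 168 h, 4 held 1 array far from the rest of its group, all at 80 mg/kg, where chance gives about 1 in 20 groups. Mgll read 9.75 in replicate 5, against 8.67 to 8.99 in the other 5 arrays. Car4 read 4.81 in replicate 6, against 6.50 to 7.27 in the others. Myh7 read 12.2 in replicate 6, against 12.8 to 13.1, and Carmil3, one of the genes with the smallest p for the difference between times, 6.24 in replicate 3, against 6.77 to 6.99. Without the array concerned, the differences from vehicle were 0.60 for Mgll, −0.62 for Car4 and 0.96 for Myh7, and none was called.

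The effect of 80 mg/kg on Bhlhe41 differed between 168 h and 24 h by −1.004 (SE 0.186, adjusted p 0.0314, limma), and by −0.99 without the 10 arrays high in Myl7 at 6 and 24 h (adjusted p 0.144).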

How the results depend on the processing

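The direction of all 10 called probe sets was the same in 239 of 239 values under other settings. On leaving out 1 array this was fixed in advance, since the groups of all 10 did not overlap. Several other settings, such as the intensity trend, change the test and not the difference. Rbp7, Gpihbp1 and Aqp1 kept their calls in all 13 settings and in 11 of 11 fits without 1 array, and Fabp4 lost its call only on the deposited scale (adjusted p 0.277), as did 1389586_at. Fabp5 kept its call in 7 of 13 settings, Hrct1 in 8, Ggta1 in 7, Cytl1 in 10 and 1380916_at in 5 of 12. All 5 lost it on the deposited scale and with only the arrays of the contrast, and all but Cytl1 without a filter and with the replicate block. Fabp5 and Hrct1 lost it with median scaling, Ggta1, Cytl1 and 1380916_at with array weights, Fabp5, Ggta1 and 1380916_at without the third array cluster, and 1380916_at with a floor. Among the 54 named probe sets that were not called, 37 of 1289 values had the other sign and 34 were calls. The number of calls for 80 mg/kg against vehicle, 10, became 3 on the deposited scale, 6 without a filter on signal, and 19 with array cluster as a block, and 5 to 12 on leaving out 1 array. For 80 against 10 mg/kg the 7 calls became 3 on the deposited scale and 4 with only the arrays of the contrast, and 5 to 8 on leaving out 1 array. The 1 call for 168 against 24 h became 0 on the deposited scale, with median scaling, without a filter, with only the arrays of the contrast, with array weights, with cluster as a block and with RNA integrity covariates, and 0 or 1 on leaving out 1 array. For 168 against 336 h it was 0 in each setting. The causes were not tested. Whether replicate numbers pair the arrays could not be settled from 5 shared numbers. Same-numbered arrays at 80 mg/kg and vehicle had correlations of 0.312, 0.17, 0.141, 0.0717 and −0.159, with 2 of 5 matching best. With the replicate number as a block, 6 probe sets were called against vehicle, 4 against 10 mg/kg, 1 against 24 h and 0 against 336 h. The number of arrays, and signal near background in dim probe sets such as 1380916_at, limit what could be called.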
